A study of Arabidopsis thaliana with 39 samples.

Results

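In Arabidopsis thaliana, 19 of the 33602 genes in the heat RNA-seq tables were lost within 0.5 h of heat and back near their starting level at 48 h. They were picked on wild-type group means of TPM (an abundance scaled for transcript length and library depth) after adding 0.5. The rule asked for at least 5 TPM in WT T0, a T30/T0 ratio of at most 1/6 and a T48/T0 ratio between 0.67 and 1.5. Of 12096 genes with at least 5 TPM in WT T0, 71 met the heat limit. At T48, 30 of these stayed below the range, 22 stood above it and 19 lay inside it. The WT heat libraries therefore chose the members, and their WT values are given as a description with no test.

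The members include 2 enzymes of glucosinolate synthesis (CYP79B2, SOT17), an adenosylmethionine decarboxylase (AT3G25570) and 4 transcriptional regulators (TCP2, GATA17, NGA1, IAA29). A histone H3.1 gene (AT5G10390), the defence gene PR4, the leucine-rich repeat gene AT4G16880, the calcium-binding protein gene CP1, the RING and PHD finger genes ATL78 and AT3G14740 and the phosphatase gene APD7 also belong to them. The last 5 are AT1G11210, of the uncharacterized DUF761 family, the non-coding RNA AT4G40065, and AT1G07901, AT2G16367 and AT1G11055, which are short and held few reads. The same genes were then followed in morchex, whose libraries the rule did not use.

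The heat experiment compared Col-0 plants (WT) with morchex, a mutant that carries morc1-2, morc2-1, morc4-1, morc5-1, morc6-3 and morc7-1 and so lacks all 6 functional MORC genes. Plants were sampled before heat (T0), at 0.5 h of heat (T30) and 48 h after return to normal temperature (T48). WT had 3 libraries at each time, and morchex had 3 at T0 and 2 each at T30 and T48. A separate unheated experiment compared 3 libraries of the lug mutant with 3 of its Ler background, and ChIP-seq gave 1 peak list for each of the FLAG-tagged proteins TPL and LUG in either Col-0 or morchex plants. The labels give plants of 5 to 6 weeks as the source for the series. They do not say whether libraries came from separate plants, so p-values measure the spread between these libraries, which may be technical.

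MORC proteins are ATPases that compact chromatin and help to silence genes, and TPL and LUG are co-repressors that transcription factors bring to promoters. In plants, as in other eukaryotes, sudden heat turns on chaperone genes through heat shock factors while transcription and translation of many growth genes fall, and a short-lived messenger RNA can then disappear quickly. Glucosinolates are sulfur-rich defence compounds of the cabbage family. CYP79B2 starts the indole branch from tryptophan, and SOT17 adds the sulfate in the last step of the core pathway.

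A sequence feature that the rule did not use was an 8-letter core (AAATATCT on either strand) of the evening element, which is known from promoters of clock-controlled genes. The core is called the evening element here. It lay between 250 bases before and 50 bases after the start site in 5 of the 19 members and in 6.09% of the 18675 tested genes with a promoter in the annotation (5.08% of all 37897 promoters). Its 6 copies are shown 5′ to 3′ on the strand of the gene with 16 bases on either side, the core in capitals, from the RefSeq TAIR10.1 genome. The positions in brackets are on that build.
CYP79B2 (chr4:18525038-18525077, plus strand): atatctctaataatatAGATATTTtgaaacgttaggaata
AT4G16880, first copy (chr4:9497418-9497457, minus strand): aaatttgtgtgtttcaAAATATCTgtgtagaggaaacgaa
AT4G16880, second copy (chr4:9497291-9497330, minus strand): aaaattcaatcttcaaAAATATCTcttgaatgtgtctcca
TCP2 (chr4:10165671-10165710, minus strand): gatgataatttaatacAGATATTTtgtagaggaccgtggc
ATL78 (chr1:18209173-18209212, plus strand): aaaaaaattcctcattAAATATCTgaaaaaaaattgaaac
AT4G40065 (chr4:18575695-18575734, minus strand): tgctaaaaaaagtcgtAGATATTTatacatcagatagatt
The copies began at position 13 in CYP79B2, -128 and -1 in AT4G16880, -111 in TCP2, -5 in ATL78 and -133 in AT4G40065, counted from the start site. These matches describe the letters and are not shown to be bound sites. The longer form AAAATATCT was not searched, and the copies in ATL78 and AT4G40065 lack its first A. No other motif searched reached 3 times its share among tested genes. The evening element is thus the highest of several motifs searched, and its share is a description with no test. Besides the motifs named below, the search held the DRE core, GCC-box, auxin response element, rapid stress response element, site II, TCP site and histone octamer. The heat shock element (GAANNTTC) was in 1 member (PR4) against 11.7% of tested promoters, and the G-box (CACGTG) was in 1 (AT1G11210) against 8.88%. The TATA box letters (TATAAA) were in 12 of 19 members against 50.5% of tested promoters, and the W-box core (TTGAC) in 10 against 50.5%.

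The libraries matched their heat labels. The summed level of HSFA2, HSP101, HSP90.1 and APX2 was 5.18 to 8.21 TPM in WT T0, 3410 to 5510 TPM in WT T30 and 7.54 to 16.6 TPM in WT T48, and 7.69 to 9.34, 3330 to 4720 and 8.58 to 10.8 TPM in morchex. The labelled tissue, floral tissue, was not borne out by its defining markers. LFY was at 0 in all heat groups, AP1, AP3, PI and SEP2 were at or below 0.23 TPM on average in each, and 4 to 6 of 7 anther genes were at 0 in each. AG, SEP1 and SEP3 had group means of 1.13 to 9.71 TPM. The green-tissue genes CAB1, RBCS1A and LHCB2.1 summed to 29300 to 59100 TPM. Depth was 8606374 to 15342615 expected counts per library in WT and 12752836 to 25054384 in morchex, and 11411580 to 15862563 in Ler and lug. The heat also shifted the TPM scale itself. The median log2 TPM change over the 18827 tested genes was -0.37 at T30 and 0.18 at T48 in WT, and -0.26 and 0.31 in morchex, each against T0. The fitted fold changes below use TMM normalization, which removes this shift.

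**Figure D1:**
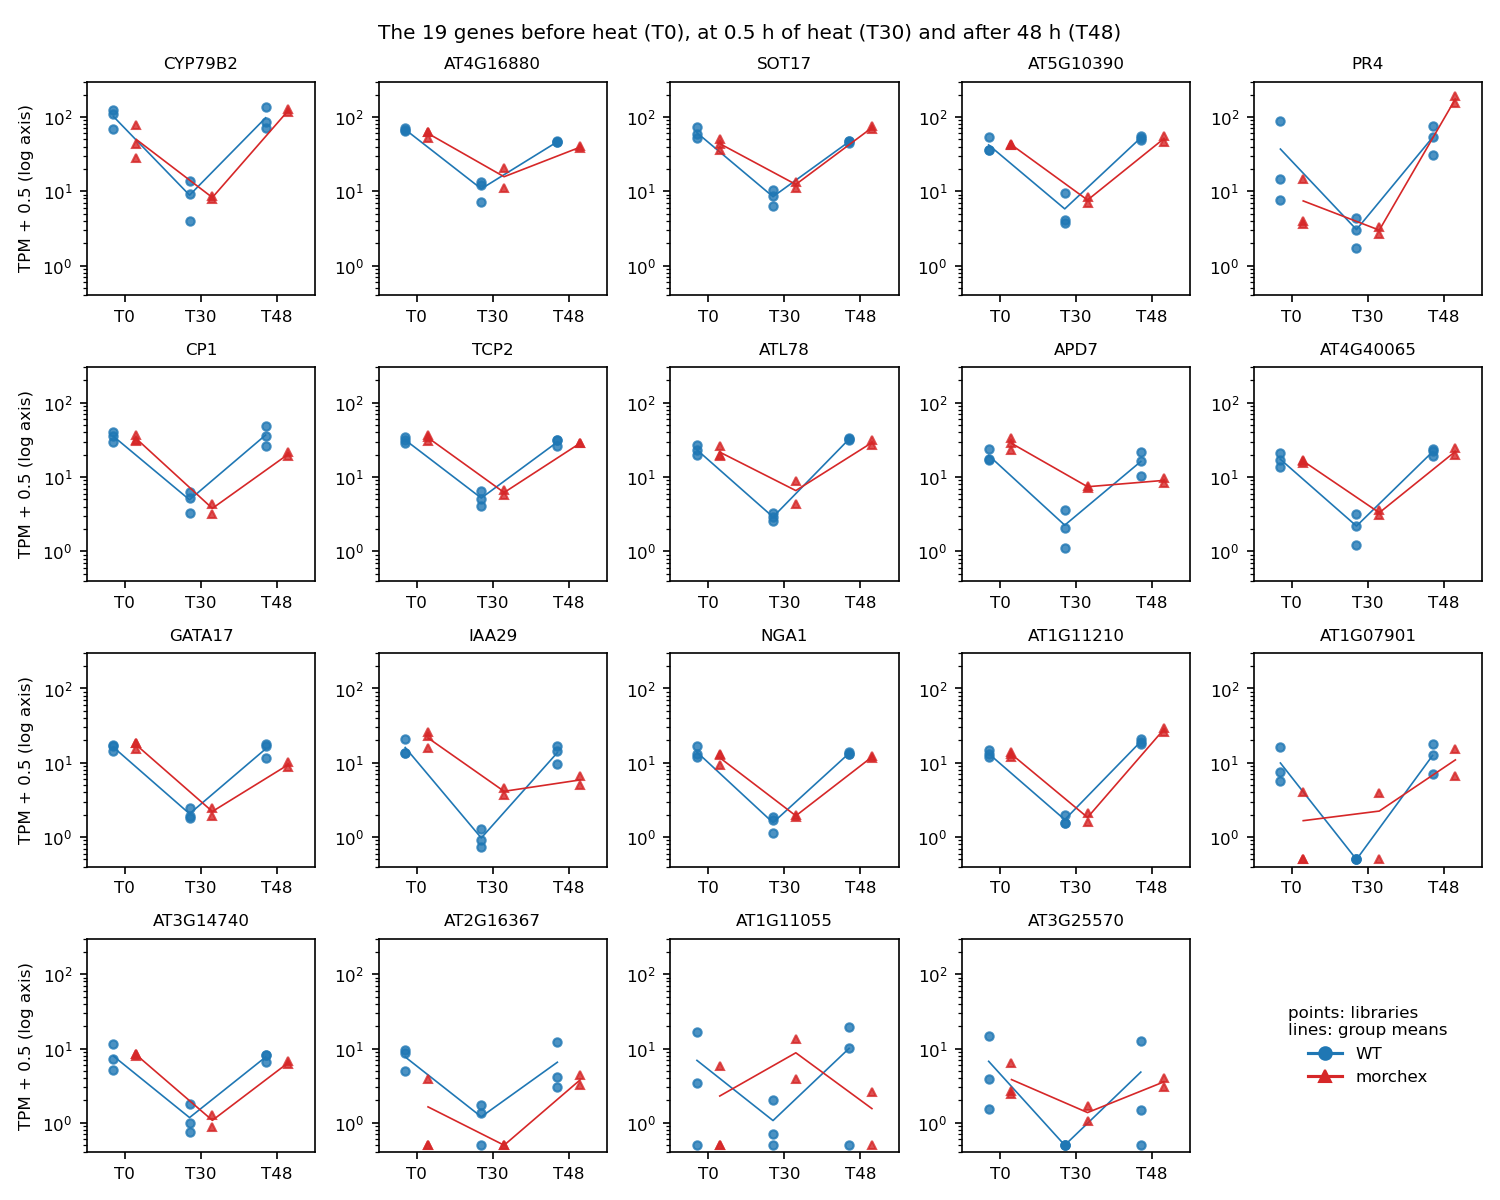
TPM + 0.5 of the 19 genes in each heat library (log axis), with WT as blue circles, morchex as red triangles and lines through group means. In WT the mean of every gene dipped at T30 by choice of the genes, and in morchex the mean dipped in 17 of 19, the exceptions being the sparsely counted AT1G07901 and AT1G11055.

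The glucosinolate enzyme CYP79B2 was the most abundant member. Its WT libraries held 109, 68.4 and 125 TPM at T0, 8.6, 3.45 and 13.0 TPM at T30 and 85.3, 70.6 and 135 TPM at T48. In morchex it stood at 43.1, 77.5 and 27.3 TPM before heat, 7.37 and 8.12 TPM at T30 and 128 and 117 TPM at T48. All heated libraries lay below all unheated ones, and both morchex T48 libraries lay above the 3 morchex T0 libraries. SOT17 held 58.8, 52.0 and 71.7 TPM in WT T0, 8.21, 5.85 and 9.81 TPM in WT T30 and 44.2, 47.5 and 46.4 TPM in WT T48. Its morchex libraries held 43.3, 50.7 and 35.6 TPM at T0, 13.0 and 10.7 TPM at T30 and 67.6 and 74.7 TPM at T48. SOT17 at T48 thus lay below all T0 libraries in WT and above all T0 libraries in morchex.

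TCP2, a CIN-type TCP factor that limits leaf cell proliferation and is a target of miR319, had the smallest fall of the set in WT, at the edge of the rule. Its levels were 28.0, 33.9 and 31.2 TPM in WT T0, 6.02, 4.53 and 3.59 TPM in WT T30 and 25.3, 31.2 and 30.8 TPM in WT T48. The morchex libraries ran alongside, with 33.8, 30.3 and 35.7 TPM at T0, 5.15 and 6.22 TPM at T30 and 28.3 and 27.9 TPM at T48. No group of TCP2 libraries separated the genotypes.

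GATA17, one of the B-class GATA factors linked to greening, held 16.4, 16.9 and 13.7 TPM in WT T0, 1.41, 1.99 and 1.28 TPM in WT T30 and 17.2, 16.5 and 10.99 TPM in WT T48. In morchex it held 14.8, 18.0 and 17.7 TPM at T0, 2.00 and 1.42 TPM at T30 and 9.72 and 8.21 TPM at T48. The morchex T48 libraries lay below every T0 library and every WT T48 library. NGA1, a B3 factor of leaf and style development, held 11.5, 12.5 and 16.2 TPM in WT T0, 1.35, 1.20 and 0.64 TPM in WT T30 and 12.6, 13.5 and 12.7 TPM in WT T48. Its morchex libraries held 8.80, 12.2 and 12.7 TPM, 1.51 and 1.36 TPM, and 11.8 and 11.2 TPM at the same times. At T48 both genotypes were back within the range of their T0 libraries.

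IAA29, an Aux/IAA protein gene of auxin signalling that phytochrome-interacting factors induce in shade and warmth, had the deepest fall among the well-counted members in WT. It went from 13.0, 20.4 and 13.2 TPM at T0 to 0.40, 0.79 and 0.23 TPM at T30, a 16.5-fold lower mean after adding 0.5, and stood at 14.1, 16.4 and 9.04 TPM at T48. In morchex it held 15.5, 25.6 and 22.1 TPM at T0, 3.24 and 4.02 TPM at T30 and 6.16 and 4.60 TPM at T48. The heated morchex libraries lay above the heated WT libraries, and at T48 the order was the opposite, with no overlap at either time.

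APD7, a clade D protein phosphatase 2C, behaved alike in its values. WT libraries held 17.1, 23.6 and 16.4 TPM at T0, 1.58, 3.06 and 0.61 TPM at T30 and 15.9, 21.4 and 9.80 TPM at T48. The morchex libraries held 22.6, 32.5 and 28.6 TPM at T0, 7.15 and 6.65 TPM at T30 and 9.27 and 7.74 TPM at T48. Again morchex lay above WT at T30 and below it at T48. Other phosphatases of this clade act on the plasma membrane proton pump. APD7 overlaps 2 annotated genes on the other strand, and the counting as described did not use strand, so reads of such partners cannot be told apart.

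AT5G10390, which encodes the replication-coupled histone H3.1, held 35.8, 53.2 and 35.7 TPM in WT T0, 9.04, 3.25 and 3.60 TPM in WT T30 and 51.5, 55.5 and 49.1 TPM in WT T48. In morchex it held 41.4, 41.1 and 42.6 TPM, then 7.84 and 6.41 TPM, then 55.7 and 44.8 TPM. The 5 H3.1 genes encode the same protein and have near-identical coding sequence, so the split of reads among them is uncertain. ATL78, a RING-type ubiquitin ligase of the ATL family, held 19.1, 26.6 and 22.5 TPM in WT T0, 2.06, 2.37 and 2.77 TPM in WT T30 and 31.8, 32.5 and 31.4 TPM in WT T48. Its 2 heated morchex libraries, 8.25 and 3.89 TPM, stood above all 3 heated WT libraries, while at T0 (18.8, 19.02 and 25.6 TPM) the genotypes overlapped. At T48 morchex held 30.9 and 26.1 TPM, just below the WT libraries. ATL78 overlaps a gene on the other strand as well.

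CP1, an EF-hand calcium-binding protein gene, held 29.4, 39.5 and 35.4 TPM in WT T0, 4.69, 2.79 and 5.84 TPM in WT T30 and 48.4, 25.6 and 34.7 TPM in WT T48. The morchex libraries held 29.7, 31.2 and 36.1 TPM, then 2.72 and 3.85 TPM, then 18.7 and 21.1 TPM, the last pair below every unheated library. AT4G16880, a leucine-rich repeat gene, fell from 63.8, 71.3 and 66.7 TPM to 12.8, 11.5 and 6.64 TPM in WT and stood at 46.5, 46.2 and 44.9 TPM at T48. Its morchex libraries held 63.1, 52.3 and 63.1 TPM, then 19.8 and 10.6 TPM, then 39.6 and 37.9 TPM. In both genotypes its T48 libraries lay below its T0 libraries.

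AT1G11210 held 12.7, 14.3 and 11.3 TPM in WT T0, 1.07, 1.07 and 1.51 TPM in WT T30 and 20.5, 18.4 and 17.7 TPM in WT T48. Its morchex libraries held 12.5, 11.5 and 13.7 TPM, 1.60 and 1.08 TPM, and 29.1 and 25.8 TPM, so that every T48 library in both genotypes was above every T0 library. The non-coding RNA AT4G40065 held 13.1 to 20.7 TPM in WT T0, 0.71 to 2.64 TPM in WT T30 and 18.95 to 23 TPM in WT T48, with morchex at 15.02 to 16.4, 2.56 to 3.06 and 19.4 to 23.8 TPM. It too overlaps a gene on the other strand. AT3G14740, a PHD finger gene, held 4.67 to 10.9 TPM in WT T0, 0.26 to 1.27 TPM in WT T30 and 6.07 to 7.81 TPM in WT T48, with morchex at 7.32 to 7.98, 0.39 to 0.77 and 5.61 to 6.33 TPM. For both genes the libraries of the genotypes overlapped at every time.

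The remaining 5 members met the rule on unsteady values. PR4, a pathogenesis-related chitin-binding protein gene, held 14.0, 88.3 and 7.18 TPM in WT T0, so that 1 library carried most of its mean. Its WT T30 libraries held 2.55, 1.24 and 3.87 TPM and its WT T48 libraries 74.8, 29.9 and 52.7 TPM. AT3G25570, the adenosylmethionine decarboxylase gene of polyamine synthesis, had 61.8, 18.3 and 185 expected counts in WT T0 and 0 in every WT T30 library. With 3 counts over the heated group as the floor, WT T0 was at least 102-fold higher. One WT T48 library of AT3G25570 also held 0, another 11.98 TPM and the last 0.98 TPM. AT1G07901 never exceeded 5 counts in a heat library and lies within AT1G07902 on the other strand. The pseudogenes AT2G16367 and AT1G11055 had at most 12 and 7.38 counts in any heat library, and AT1G11055 was at 0 in 1 of 3 WT T0 libraries. The other 14 members had a mean of at least 10 counts in WT T0 with libraries within 3-fold of each other, and are called steady here.

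In the fit across 18827 genes, 17 members passed the filter on low counts, and AT1G07901 and AT1G11055 did not. A gene was called at an adjusted p under 0.05 and a fold over 2. No call is read from the WT heat contrasts for the members, since those contrasts chose them. The WT T30 libraries lay below all WT T0 libraries in 18 of 19 members (49.4% of tested genes), AT1G11055 being the exception. This count follows from the choice. Values near the edge were close on both sides of it. The last genes inside were AT2G16367, AT4G16880 and TCP2 with T30/T0 of 0.157, 0.159 and 0.165, and the first outside were MYBL2, ENODL8 and AIR12 with 0.171, 0.176 and 0.177.

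When the rule was applied to 2 of the 3 WT replicate numbers and read in the third, it chose 13 to 30 genes. Replicate 1, held out, gave a median T30/T0 of 0.205 over 30 genes, with 28 below 1/2 and a range of 0.0462 to 4.02. Replicates 2 and 3, held out, gave 0.147 over 13 genes and 0.142 over 20 genes. In the held-out libraries only 12 of 30, 8 of 13 and 11 of 20 genes met the limit of 1/6 again. Members of the set made up 18 of these 30, 9 of these 13 and 15 of these 20 genes, and all WT libraries chose the set. The held-out values therefore describe the rule and are no test of the members. Each ratio divides 1 T30 library by 1 T0 library, which the replicate numbers do not pair. The return was looser, with 15 of 30, 9 of 13 and 10 of 20 within the T48 range in the held-out library. Scaling TPM by TMM factors left 10 members, and a limit of 1/4 gave 76.

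The test of the heat fall came from morchex, in libraries not used by the rule. Of the 17 tested members, 14 fell at T30 against T0, where 5.17% of tested genes were called lower, and 0 rose (5.59%). The median log2 fold change was -2.25 over the members and -0.01 over all tested genes. The 14 were the steady members, a grouping chosen after seeing the data, so this match is a description. AT3G14740 had the largest fall among them (log2 fold change -3.47 ± 0.43 SE, 11.1-fold, edgeR adjusted p = 2.7e-05). GATA17 (-3.02 ± 0.26, 8.13-fold), CP1 (-2.99 ± 0.28, 7.95-fold), AT1G11210 (-2.95 ± 0.19, 7.74-fold) and NGA1 (-2.67 ± 0.24, 6.37-fold) followed. The smallest were ATL78 (-1.54 ± 0.24, 2.91-fold, edgeR adjusted p = 2.5e-04) and SOT17 (-1.58 ± 0.18, 2.98-fold, edgeR adjusted p = 1.8e-05). These comparisons rest on 3 T0 and 2 T30 libraries.

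The 3 other members were not called. PR4 had a log2 fold change of -1.20 ± 0.99 (edgeR adjusted p = 0.386), AT2G16367 of -3.97 ± 2.17 (0.186) and AT3G25570 of -1.67 ± 1.31 (0.362). For AT2G16367 the morchex T0 group held 6 counts in all, and T30 held 0, which allows no more than at least 1.84-fold higher before heat. Every morchex T30 library lay below every T0 library in 16 of 19 members, against 50.4% of tested genes. All 14 calls were kept under each alternative that was fitted, with log2 fold changes from -3.96 for AT3G14740 to -1.11 for ATL78 when single libraries were left out.

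Return after heat was then tested in the same morchex libraries. At T48 against T30, 13 of 17 tested members rose, where 15.9% of tested genes were called higher, and 0 fell (14.1%). Of the 14 members called lower at T30, 11 rose. PR4 and AT2G16367, which also rose, had not been called lower at T30. AT1G11210 rose 13.5-fold (log2 fold change 3.76 ± 0.20 SE, edgeR adjusted p = 2.9e-09) and CYP79B2 10.3-fold (3.36 ± 0.51, edgeR adjusted p = 5.5e-05). The median over members was 1.97, against 0.06 over all tested genes. The rise of AT2G16367 (edgeR adjusted p = 0.0435, 6 and 9 counts at T48) was lost in 8 alternatives.

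IAA29 and APD7 were not called for a return in morchex. Their log2 fold changes at T48 against T30 were -0.06 ± 0.35 (edgeR adjusted p = 0.896) and -0.31 ± 0.38 (edgeR adjusted p = 0.504). On the TPM scale both T48 libraries lay above both T30 libraries in each gene, as they did in 18 of 19 members and in 67.8% of tested genes, so the direction depends on the scale. AT4G16880 had a log2 fold change of 0.75 ± 0.24 (edgeR adjusted p = 0.0144), under the fold limit, and was called without morchex T30 replicate 1 (1.22, edgeR adjusted p = 0.00133). AT3G25570 was not called either (1.22 ± 1.37).

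**Figure D2:**
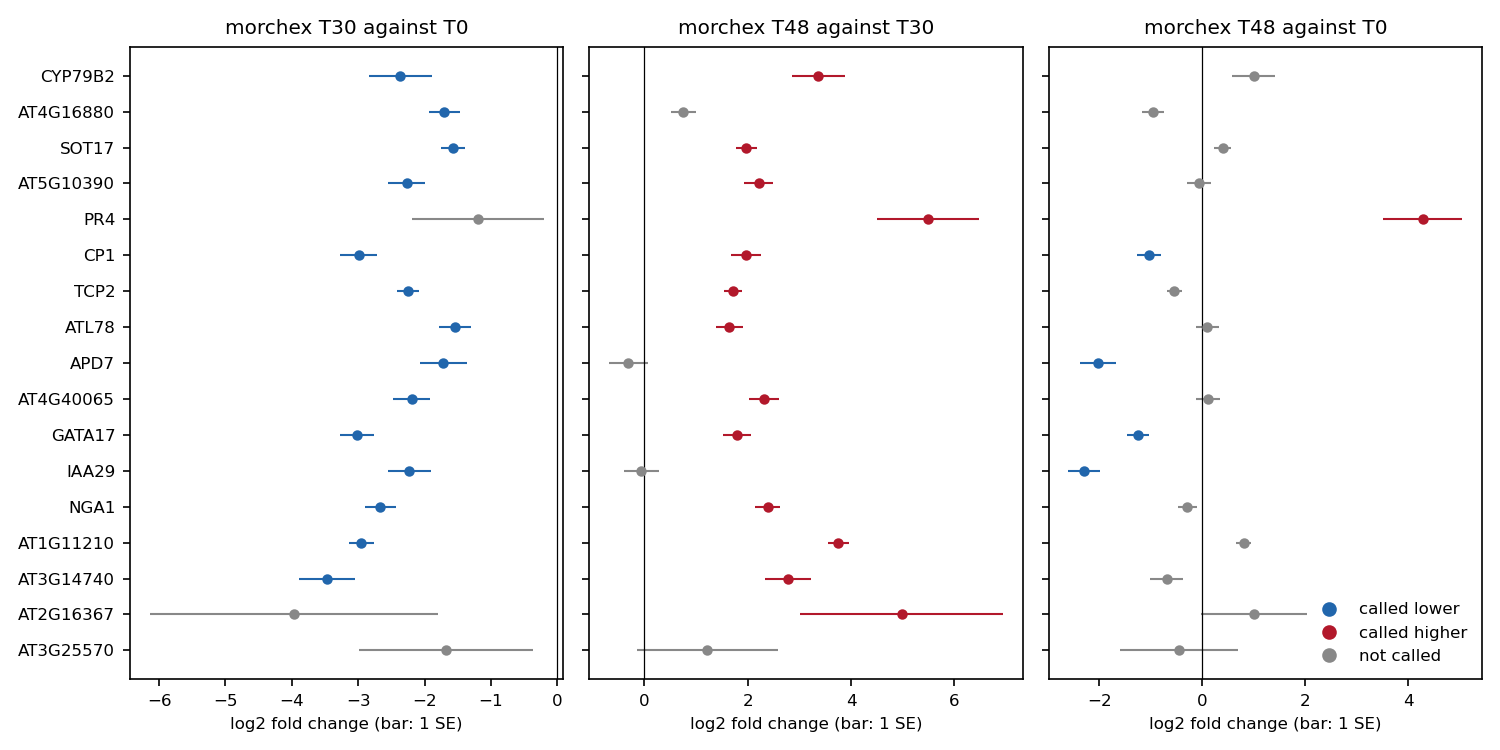
Fitted log2 fold changes in morchex for the 17 tested members, with bars of 1 SE, for T30 against T0, T48 against T30 and T48 against T0. Blue points are called lower, red points higher and grey points not called. At T30 14 are lower, at T48 against T30 13 are higher, and at T48 against T0 PR4 is higher while IAA29, APD7, GATA17 and CP1 are lower.

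Against T0, 4 members were lower at T48 in morchex (12.4% of tested genes were called lower) and 1 was higher (13.8%). IAA29 was 4.89-fold lower (log2 fold change -2.29 ± 0.31, edgeR adjusted p = 2.0e-05), APD7 4.09-fold lower (-2.03 ± 0.35, 1.8e-04), GATA17 2.36-fold lower (-1.24 ± 0.21, 1.8e-04) and CP1 2.04-fold lower (-1.03 ± 0.23, 0.00167). CP1 lost its call without morchex T0 replicate 3 (-0.94) and without morchex T48 replicate 2 (-0.97). PR4 was 19.5-fold higher (4.29 ± 0.77, edgeR adjusted p = 2.4e-04), with 3.17, 3.45 and 14.1 TPM at T0 and 156 and 192 TPM at T48. Without morchex T0 replicate 3, the highest of the T0 libraries, its log2 fold change was 5.39.

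The other 12 tested members were within 2-fold of T0 or missed the threshold. AT4G16880 (-0.95 ± 0.22, edgeR adjusted p = 0.00167) and AT1G11210 (0.80 ± 0.15, edgeR adjusted p = 2.8e-04) passed the p threshold at a fold under 2. CYP79B2, at 2.00-fold (1.00 ± 0.42, edgeR adjusted p = 0.055), was called without morchex T0 replicate 2 (1.45). By library, 8 members lay above all morchex T0 libraries at T48 and 7 below (55.7% and 22.5% of tested genes on the TPM scale). By the WT rule's own limits, 2 of the 19 members would have been chosen in morchex. There 6 had a T30/T0 ratio of at most 1/6 and 17 of at most 1/2, and at T48 8 were in range, 5 below and 6 above. The green-tissue sum was 29300 to 30400 TPM in morchex T48 and 54400 to 59100 TPM in morchex T0, and the sum of 3 root genes was 22.8 to 23.8 and 13.5 to 15.6 TPM. In WT the green-tissue sum was also lower at T48 (31900 to 34600 TPM) than at T0 (47900 to 54500 TPM), while the root sums overlapped. In the fit, the root genes changed in morchex at T48 against T0 by 0.08 (SCR), 0.72 (SHR) and 3.16 (PYK10) on the log2 scale. PYK10 was low, with means of 0.143 TPM in morchex T0 and 1.42 TPM in morchex T48. The part of these sums in the T48 values was not tested. In whole samples, fewer cells of a type cannot be told from less RNA per cell.

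Comparisons of morchex with WT use the WT libraries that chose the members, so their sizes are given as a description with no call. At T30 the fitted log2 difference, morchex against WT, was 2.83 ± 0.48 SE for IAA29, 1.86 ± 0.41 for APD7 and 1.19 ± 0.29 for ATL78. At T48 it was -1.44 ± 0.31 for IAA29, -1.03 ± 0.35 for APD7 and -1.02 ± 0.24 for CP1. IAA29 and APD7 changed sides between the 2 times. By library on the TPM scale, morchex lay above WT in 7 of 19 members at T30 (26.9% of tested genes) and in 3 at T48 (40.4%), and below WT in 7 at T48 (18.3%). Before heat it lay below WT in 4 (6.12%) and above WT in 0 (8.68%).

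The difference of the heat change, morchex minus WT, had a median of 0.59 over the members on the log2 scale and 0.01 over all tested genes. It lay above 0 in 13 of 17 members and in 51.4% of all tested genes. Since the WT T0 and T30 libraries set the members' WT fall, a shallower fall in other libraries follows in part from the choice. The largest values among steady members were IAA29 (2.41 ± 0.56), APD7 (1.33 ± 0.51), ATL78 (1.31 ± 0.36) and SOT17 (0.96 ± 0.24), while TCP2 (0.07 ± 0.22), AT1G11210 (0.05 ± 0.28) and GATA17 (-0.09 ± 0.37) were near 0. The same difference for the change from T0 to T48 was 3.97 ± 1.00 for PR4, -1.86 ± 0.40 for IAA29 and -1.56 ± 0.46 for APD7. The rule held the WT side of it between 0.67 and 1.5, so these values too are a description with no call.

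**Figure D3:**
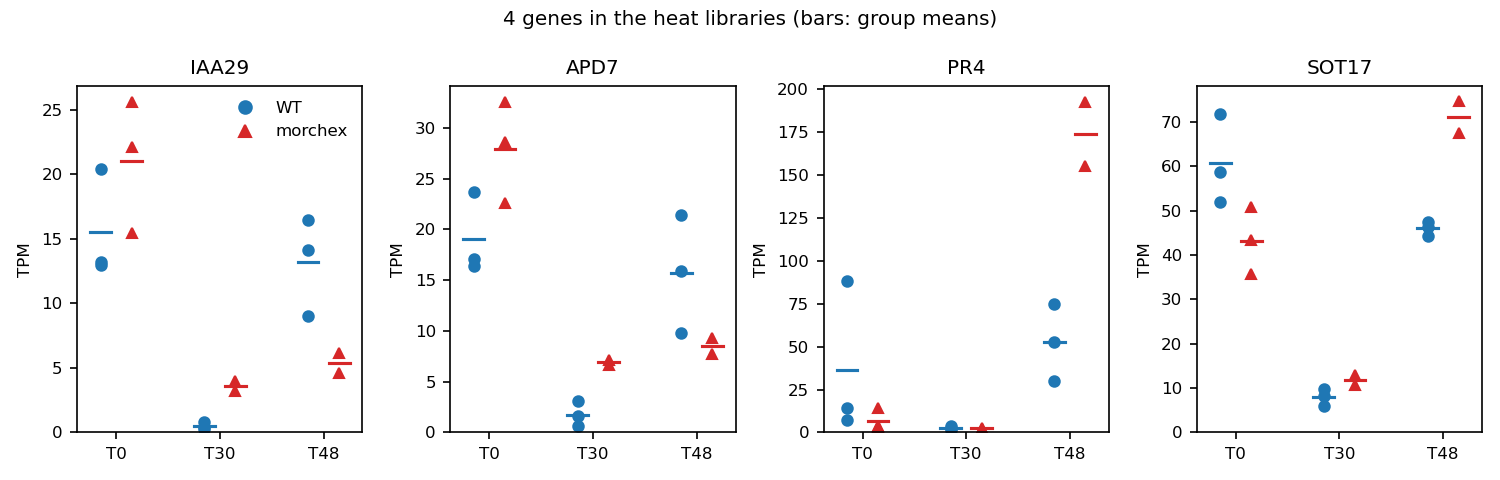
TPM of IAA29, APD7, PR4 and SOT17 in each heat library, with WT as blue circles, morchex as red triangles and bars at group means. IAA29 and APD7 of morchex lie above WT at T30 and below it at T48, PR4 reaches 156 and 192 TPM in morchex T48, and SOT17 of morchex at T48 (67.6 and 74.7 TPM) lies above all its T0 libraries.

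Relatives of the members were looked up to see how widely each family moved. These groups were assembled after the members were known, except for the GATA family and the Aux/IAA family, from which 3 auxin response factor genes matched by an older name were removed afterwards. The counts below leave out the members. In the indole glucosinolate pathway, 3 of 8 tested genes were lower in WT T30 and 2 in morchex T30, where 7.2% and 5.17% of all tested genes were called lower. CYP83B1, which oxidises the product of CYP79B2, changed by -2.40 in WT and -1.70 in morchex on the log2 scale, and SUR1, the C-S lyase, by -2.08 and -1.33. CYP79B3, which catalyses the same step as CYP79B2, was not called (-0.41 and -0.18). The aliphatic branch regulators MYB28 and MYB29 and the enzyme CYP83A1 were not called at T30 in either genotype. Of the 8 tested genes in the aliphatic list other than SOT17, 0 were called lower at T30 in either genotype.

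Of the 4 CIN-type TCP genes other than TCP2, 3 fell in WT and in morchex, with TCP3 at -2.34 and -1.67, TCP10 at -1.90 and -1.48 and TCP4 at -1.36 and -1.34. TCP24 kept within 2-fold (-0.77 and -0.74). GATA15 and GATA16, also B-class GATA genes, fell too, by -1.78 and -1.20 in WT and by -2.03 and -1.41 in morchex. Among the 22 tested GATA genes other than GATA17, 5 were lower in WT T30 (7.2% of all tested genes) and 5 in morchex T30 (5.17%). NGA3 moved against NGA1. It rose in both genotypes (3.33 in WT and 3.22 in morchex, where 6.21% and 5.59% of all tested genes were called higher), while NGA2 was lower in WT (-1.20) and not called in morchex (-0.76).

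The other H3.1 genes changed less than AT5G10390, from 0.06 to -0.98 in WT, and none of these 4 was called in WT, while AT1G09200 was called in morchex (-1.18). Among clade D phosphatases, APD9 fell alongside APD7 (-1.95 in WT and -2.22 in morchex), and APD5, APD6 and APD8 were not called. Of the 21 tested Aux/IAA genes other than IAA29, 4 were lower in WT T30 and 2 in morchex T30, against 7.2% and 5.17% of all tested genes. At T48 against T0, 8 of the 21 were lower in morchex and 1 in WT, with none higher, where 12.4% and 4.3% of tested genes were called lower. The 8 include IAA5 (-3.05), IAA14 (-2.30), IAA1 (-1.55) and IAA19 (-1.24). The difference of these 2 counts was not tested.

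**Figure D4:**
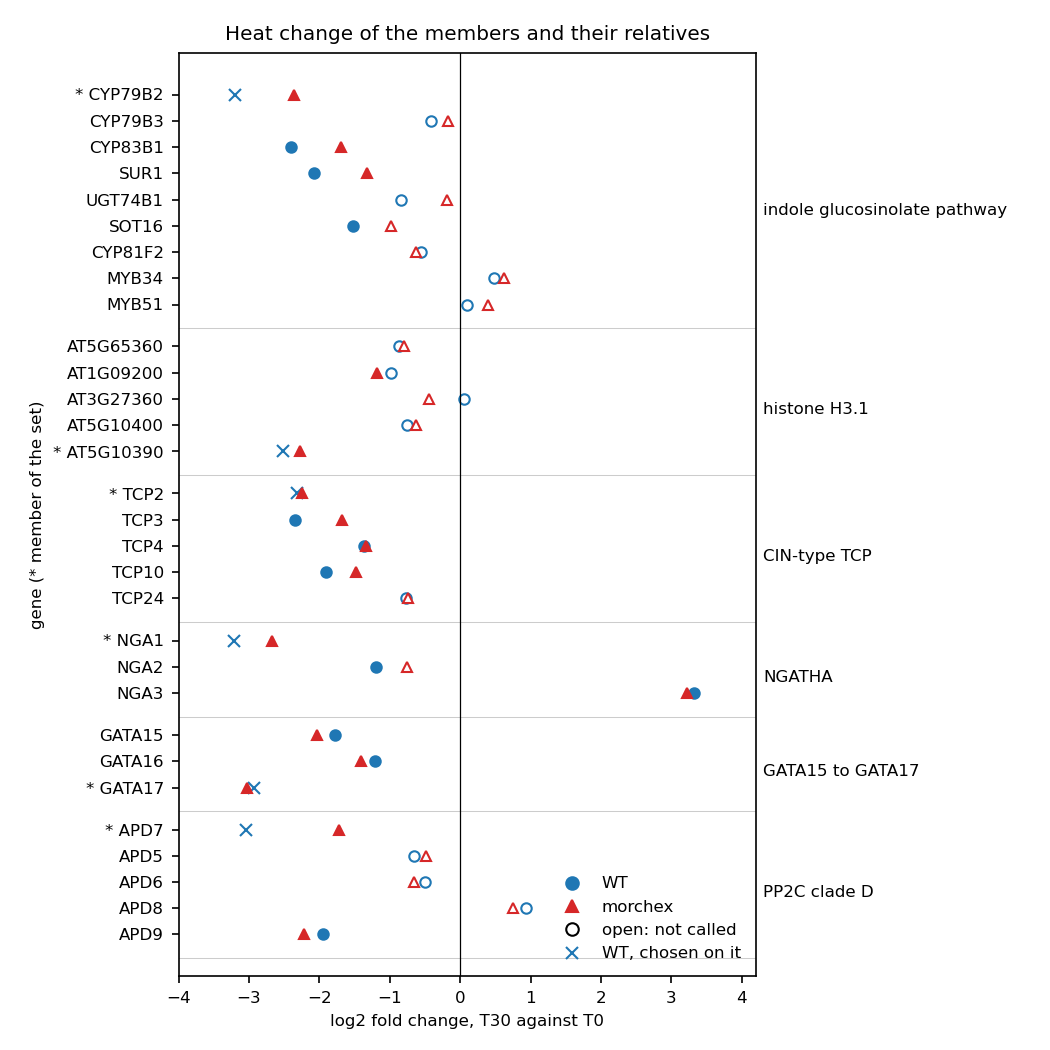
Log2 fold change at T30 against T0 of the members (starred) and their tested relatives in 6 groups, with WT as blue circles and morchex as red triangles, filled where called and open where not, and crosses for WT values that chose a member. The 3 GATA genes and 5 CIN-type TCP genes lie left of 0 in both genotypes, while NGA3 lies at 3.33 and 3.22.

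The members were short genes with few introns. Of the 19, 9 had 1 exon (47.4%, against 16.1% of the 18676 tested genes with an annotated structure) and 15 had at most 2 (78.9% against 30.6%). None had more than 4 exons. The median transcript was 1194 bp, against 1767 bp. Among the 14 steady members, 42.9% had 1 exon and 78.6% at most 2. These shares are a description of the chosen genes.

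**Figure D5:**
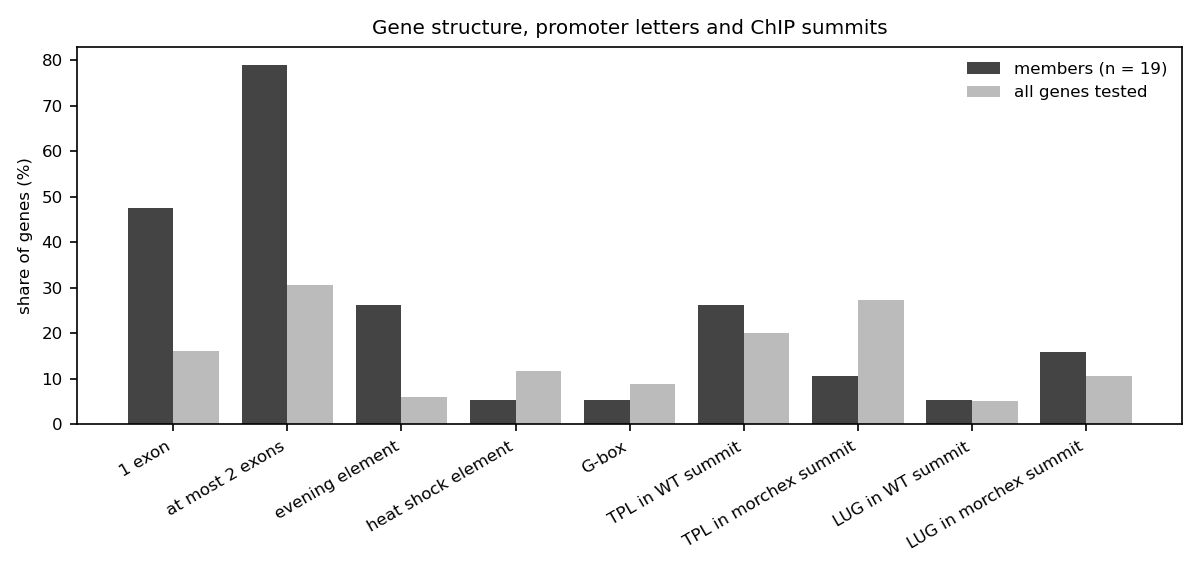
Share of the 19 members (dark bars) and of all tested genes (light bars), in percent, with 1 exon, with at most 2 exons, with 3 of the motifs searched in the promoter, and with a ChIP summit at the promoter. Few-exon genes and evening elements take a larger share of the members (47.4% against 16.1% for 1 exon), and the ChIP lists do not lie to one side.

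Co-repressor binding was read from the peak lists, counting a summit from 1000 bp before to 200 bp after the start site. Each list stands alone, so no test was made. In the line labelled TPL, 5 members had a summit in WT (20.1% of tested genes), AT4G16880, CP1, ATL78, AT4G40065 and NGA1, and 2 had one in morchex (27.3%), CP1 and ATL78. LUG had a summit at 1 member in WT (5.09%), ATL78, and at 3 in morchex (10.7%), CP1, ATL78 and NGA1. The cloning primers that the study lists for TPL match the TPR1 locus (AT1G80490), a close relative, and those listed for LUG match LUG.

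ATL78 was the single member with a summit in all 4 lists. They lay 675, 639, 706 and 631 bp before its start site, in the order TPL in WT, TPL in morchex, LUG in WT and LUG in morchex. Their fold enrichments, as the peak caller gave them, were 4.58, 6.03, 2.33 and 2.98, and by q-value they ranked 488 of 10267, 460 of 12224, 1281 of 2721 and 1054 of 5351 peaks. The stretch that holds all 4 summits is shown because 2 tagged proteins were enriched there in both genotypes. It runs 5′ to 3′ on the plus strand of TAIR10.1, chr1:18208473-18208578, with the 4 summit bases in capitals, and held none of the motifs searched.
ATL78 summits: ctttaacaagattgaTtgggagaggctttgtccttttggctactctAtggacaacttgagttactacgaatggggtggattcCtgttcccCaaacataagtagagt
CP1 had summits 667 and 675 bp before its start site in the 2 TPL lists, with enrichments of 3.24 and 3.70, and 529 bp before it for LUG in morchex (2.35). NGA1 had summits after its start site, at 178 bp for TPL in WT (3.42) and 61 bp for LUG in morchex (2.80). The summits at AT4G16880 and AT4G40065 were weak (1.92 and 1.95, ranks 8842 and 8220 of 10267). With a window of 3000 bp, 9 members had a TPL summit in WT (32.7% of tested genes) and 9 in morchex (41.0%). For LUG the counts were 5 in WT (9.51%) and 7 in morchex (18.1%). Counting any overlap of a peak with the main window gave 9 members for TPL in WT (29.3%) and 7 in morchex (36.6%), with NGA1 in both. The difference in TPL counts between the genotypes thus depends on the window.

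On simulated data, the fit of Ler and lug recovered 84% of genes changed by -1.5 on the log2 scale and 74% of those changed by 1.5. The simulation gave every gene the same spread, so these shares do not hold for members that vary more. The SE of the members in lug against Ler ran from 0.185 (NGA1) to 1.35 (PR4). In the unheated lug experiment, 16 members were tested among 17643 genes, and none was called higher (0.21% of tested genes) or lower (0.204%) in lug by edgeR. At an unadjusted p under 0.05, 1 was higher and 2 were lower, and DESeq2 called 1 higher and 0 lower. The share of all tested genes was not counted under either criterion, so these counts are a description. The higher gene was AT4G16880 in both. It had between 6.03 and 11 counts in the Ler libraries and 19, 475 and 356 in lug, a log2 fold change of 5.00 ± 1.14 (edgeR adjusted p = 0.249). It was called when lug replicate 1 was left out (5.54, edgeR adjusted p = 0.0151). Every lug library lay above every Ler library, 1 of them narrowly (1.89 against at most 1.29 TPM). Ler held 0.69 to 1.29 TPM where unheated WT (Col-0) held 63.8 to 71.3 TPM.

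TCP2 and NGA1 were the members lower at an unadjusted p. TCP2 held 48.3, 34.2 and 36.3 TPM in Ler and 28.5, 20.4 and 17.5 TPM in lug (log2 fold change -0.71 ± 0.24, edgeR adjusted p = 0.558). NGA1 held 6.69, 9.75 and 6.85 TPM in Ler and 4.33, 4.71 and 4.08 TPM in lug (-0.68 ± 0.19, edgeR adjusted p = 0.379). In both genes each lug library lay below each Ler library, and neither passed the adjustment over all genes. The share of all tested genes whose lug and Ler libraries separate was not counted. One lug library, replicate 2, stood apart for IAA29 (14.3, 3.16 and 33.9 TPM) and APD7 (42.5, 7.03 and 60.3 TPM). Ler replicate 2 held 157 TPM of PR4, where no other Ler or lug library held more than 19.1 TPM.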

How the data were processed

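For RNA-seq, the authors used Bowtie2 (2.1.0) on the TAIR10 genome, quantified with RSEM, and deposited the expected count, TPM and FPKM of each gene in each library. Libraries came from a stranded mRNA kit, while RSEM ran with default parameters. The authors called ChIP-seq peaks with MACS2 (2.1.1) and deposited peak lists with a score, a fold enrichment (ratio), and −log10 p and q values. The authors' other files were not used here. The members and gene lists were chosen with earlier results of these data known. All 19 members are named, and genes outside the set appear as relatives, as label checks or as the next genes past the limit.

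After rounding, these counts entered edgeR 4.0.16 (quasi-likelihood, TMM, filterByExpr by group, R 4.3.3) in one fit of the 16 heat libraries and another of the 6 Ler and lug libraries. Calls required a Benjamini-Hochberg adjusted p under 0.05 over all genes tested and a fold over 2, on totals of 8606374 to 25054384 expected counts per library, whose size limits the precision of low-count members. A group at 0 counts was set at 3 counts for a lower bound, which covers counting error only. TPM and FPKM served the rule and its alternatives. The fit was tested on simulated data with 18827 genes for morchex T30 against T0. It recovered 98% of genes changed by -1.5 on the log2 scale and 100% of those changed by -2, with 1 false call. For lug against Ler, with 17643 genes, it recovered 84% at -1.5, 74% at 1.5, 98% at -2 and 100% at 2, with 10 false calls. The changed genes were drawn above a minimum level, so low-count members are not covered. Every simulated gene had the same spread, so members that vary more are not covered either. Promoters and gene structure came from RefSeq TAIR10.1, whose chromosome lengths held all peaks. Alternatives covered the rule's limits, pseudocount (0.1 and 1) and minimum TPM (1 and 10), DESeq2 1.42.0, limma 3.58.1 on log2(TPM + 1), filters, the fold threshold, a replicate block and each library left out. Replicate numbers did not pair the samples, and no 2 libraries of a group were identical.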

Additional observations from a re-analysis of the deposited data

Results flagged for a closer look

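On the TPM scale, SOT17 moved in opposite directions in the 2 genotypes between T0 and T48. All 3 WT T48 libraries (44.2 to 47.5 TPM) lay below all WT T0 libraries (52.0 to 71.7 TPM), and both morchex T48 libraries (67.6 and 74.7 TPM, mean 71.1 TPM) lay above all morchex T0 libraries (35.6 to 50.7 TPM). On the TPM scale 55.7% of tested genes lay above all morchex T0 libraries at T48. The fitted log2 fold change in morchex alone was 0.397 ± 0.168 SE (edgeR adjusted p = 0.0584) and was not called. In the fit, the T48 change in morchex minus that in WT was 0.99 ± 0.23 SE on the log2 scale, 1.99-fold. It is given as a description, since the WT side of it was held in range by the choice of the genes.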

How the results depend on the processing

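The 14 calls at T30 in morchex held in all 280 combinations of a gene with an alternative fit. Many of these fits left out a WT or a morchex T48 library. Such libraries are outside this contrast, so leaving them out could move the estimates little. Over the 17 tested members, for T48 against T30 and T48 against T0, 329 and 332 of 339 such combinations kept their side of the threshold, with none reversed. The limit of the rule set the size of the set and its counts. With 1/4, 63 members were lower at T30, 43 higher at T48 against T30, 2 higher and 21 lower at T48 against T0; with 1/8 the counts were 5, 4, 1 and 2. The number of members was 10 on TMM-scaled TPM. At T48 against T0, 2 members were higher with no filter on low counts and with no fold threshold, and 0 among the steady members, an alternative chosen after seeing the data. Leaving out single libraries gave 14 to 27 members, 14 lower at T30, 12 to 13 higher at T48 against T30, and 1 to 2 higher and 3 to 5 lower at T48 against T0. For lug, 0 to 1 were higher without single libraries, 1 by DESeq2 and 1 at an unadjusted p. The median of morchex minus WT at T30 ranged from 0.11 to 0.45, and the median difference of the heat change from 0.35 to 0.75, without single libraries; with the limit of 1/8 they were 1.19 and 1.33. A −log10 q of at least 10 left 3 members with a TPL summit in WT (5.18% of tested genes) and 0 with a LUG summit in WT (1.27%). A window of 3000 bp gave 9 (32.7%) and 5 (9.51%) in WT. Any overlap of a peak with the main promoter window gave 9 with TPL in WT (29.3%). The cause of these shifts was not tested. Libraries with the same replicate number did not deviate together (correlations of -0.20 to 0.17, 4 of 35 over 0.1). With the replicate block, 14 members were lower at T30, 12 higher at T48 against T30, and 1 higher and 4 lower at T48 against T0. The members below 10 counts cannot show a change of a few fold at this depth.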
